A study of Mus musculus with 12 samples.

Results

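Etv4, Etv5 and genes of the negative feedback on MAPK (ERK) signaling were examined in Myc-CaP, an established line of mouse prostate cancer cells that overexpress Myc. The set holds 10 of the 55216 genes in the count table: the 3 PEA3 factors Etv1, Etv4 and Etv5, the Sprouty genes Spry1, Spry2 and Spry4, the phosphatase genes Dusp4 and Dusp6, and Spred1 and Spred2. They were taken by symbol, and they were selected on measured values: Etv5 and Etv4 were known to be among the largest falls with the DNA-crosslinking platinum compound oxaliplatin (Oxali) in these libraries. Comparisons of Oxali with untreated cells are therefore described without a test. Of the 10 genes, 7 passed the filter on low counts, which kept 13177 genes in all, and 3 (Etv1, Spry1, Spry2) did not. RNA was sequenced 48 h after treatment in 12 libraries that form 6 groups of 2. The groups are untreated cells (Ctrl), interferon γ at 200 pg (IFN200) or 2000 pg (IFN2000), Oxali at 2 μM, and Oxali at 2 μM together with IFNγ at 200 pg (Combo200) or 2000 pg (Combo2000). The labels give the IFNγ dose without a volume. All groups are the same cell line, from a male mouse of strain FVB/NJ, so every statement concerns 1 cell line.

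Groups were taken from the sample titles, and in 6 libraries the title is contradicted by a further label that gives the agent. The agent of the pair titled IFN200 is Oxali, that of the pair titled IFN2000 is IFNγ at 200 pg, and that of the pair titled Oxali is IFNγ at 2000 pg. Cdkn1a, a p53 target that DNA damage induces, was at 48.1 to 53.6 CPM (counts relative to the library total, with totals scaled by TMM) in the 6 libraries titled Oxali or Combo and at 24.0 to 30.3 CPM in the other 6. Irf1, an IFNγ target, was at 42.9 and 47.1 CPM in the libraries titled IFN200, 93.9 and 94.6 in those titled IFN2000, 94.1 and 96.3 in those titled Oxali and 37.0 and 38.6 in Ctrl. If the agent labels were right, the 3 single-treatment names would change places, pair by pair, in what follows, while Ctrl and the combinations would keep theirs.

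The depth was similar across the set: 18749975 to 25931516 counts per library. Of the luminal markers read as a check of the cell type, Foxa1, Hoxb13 and Krt8 had at least 353 counts in every library, Epcam had 0 counts in all 12, and Krt18 and Cdh1 had at most 5 and 6 counts. Some libraries stood apart. IFN2000 replicate 2 held transcripts of T cells (Cd3d 13 counts, Cd4 33 counts, with at most 1 count of either elsewhere), and IFN200 replicate 1 held transcripts of heart muscle (Actc1 63 counts, Myh6 28 counts, against at most 2 and 4 elsewhere). In both IFN2000 libraries the log2 ratio to Ctrl fell with transcript length across genes, with a Spearman correlation of -0.35 in replicate 2 and -0.19 in replicate 3, against -0.02 to 0.15 in the other 10 libraries. The summed T cell, heart muscle, macrophage and fibroblast lists also moved with Oxali. The T cell list of 8 genes was at 2.93 to 3.79 CPM in the 6 libraries with Oxali and, IFN2000 replicate 2 apart (7.28 CPM), at 0.574 to 1.13 CPM in those without. With Oxali it was nearly all Cd28 (20 to 36 counts), Lck (24 to 40 counts) and Trac (9 to 24 counts). Cd3d, Cd3e, Cd3g, Cd4 and Cd8a had at most 2 counts in any library with Oxali. The fibroblast list of 6 genes, nearly all of it Pdgfra, was at 20.9 to 25.6 CPM with Oxali and 9.95 to 17.4 CPM without, with Lum at 0 in every library. The heart muscle list of 8 genes, mostly Tnnt2, was at 3.06 to 5.94 CPM with Oxali and, IFN200 replicate 1 apart (7.81 CPM), at 0.834 to 1.27 CPM without. The macrophage list of 6 genes was at 1.53 to 2.27 CPM with Oxali and, IFN2000 replicate 2 apart (3.68 CPM), at 0.530 to 1.27 CPM without, with Adgre1 at 0 in every library. Ptprc, on this list, had 64 counts in IFN2000 replicate 2 and at most 2 counts in any other library. The part of these transcripts in the results below was not tested.

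Growth factor receptors switch on RAS, which through RAF and MEK activates the kinase ERK. Active ERK raises the transcription of the PEA3 subfamily of ETS factors, Etv1, Etv4 and Etv5, and of its own brakes: Sprouty and Spred proteins act on RAS and RAF, and dual-specificity phosphatases (Dusp4, Dusp6) remove the activating phosphates from MAP kinases. The transcripts of these genes are widely used as a readout of ERK activity, and PEA3 factors are known for their role in prostate cancer. Several of these genes are repressed by Capicua (Cic), which binds the octamers TGAATGAA, TGAATGGA, TCAATGAA and TCAATGGA and leaves DNA when ERK is active.

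Promoter windows (250 bases before to 50 after an annotated start, RefSeq, GRCm38.p6) were read for 7 of the 10 genes, with Etv1 and Etv5 at 2 starts each. Those of Etv5, the gene with the steepest change, and of Dusp6, a gene of the set that changed little, are shown so that they can be compared. They are printed 5′ to 3′ on the strand of the gene, and capitals mark matches on either strand to the Cic octamers, to the letters TGAATG that begin 2 of those octamers, to the ETS letters GGAAGT, to the AP-1 letters TGANTCA or to the CRE TGACGTCA. TGAATG was added after the sequences had been seen.
Etv5 first start, chr16:22439521-22439820, minus strand: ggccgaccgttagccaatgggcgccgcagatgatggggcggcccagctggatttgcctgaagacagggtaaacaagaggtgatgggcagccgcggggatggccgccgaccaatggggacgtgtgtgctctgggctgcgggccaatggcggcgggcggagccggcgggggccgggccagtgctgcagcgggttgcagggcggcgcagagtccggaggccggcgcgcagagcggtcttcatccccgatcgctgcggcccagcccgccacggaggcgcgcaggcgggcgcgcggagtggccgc
Etv5 second start, chr16:22438319-22438618, minus strand: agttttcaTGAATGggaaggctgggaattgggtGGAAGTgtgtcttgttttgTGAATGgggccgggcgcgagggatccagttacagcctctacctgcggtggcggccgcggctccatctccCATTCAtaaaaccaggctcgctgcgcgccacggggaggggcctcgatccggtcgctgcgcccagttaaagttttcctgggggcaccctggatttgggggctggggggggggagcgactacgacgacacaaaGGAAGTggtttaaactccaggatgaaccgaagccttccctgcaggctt
Dusp6, chr10:99262981-99263280, plus strand: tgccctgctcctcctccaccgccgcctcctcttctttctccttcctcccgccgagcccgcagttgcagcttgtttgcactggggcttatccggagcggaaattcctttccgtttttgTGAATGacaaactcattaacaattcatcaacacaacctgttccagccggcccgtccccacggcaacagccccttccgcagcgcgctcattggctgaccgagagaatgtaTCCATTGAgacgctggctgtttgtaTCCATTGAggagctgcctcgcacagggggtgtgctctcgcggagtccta
The second Etv5 window held 3 copies of TGAATG, at positions -242, -198 and -129 counted from the start as 0, and 2 copies of the ETS letters, and it held no full octamer. The first Etv5 window held none of these motifs. Dusp6 held 2 octamers, at positions -24 and 1, and 1 further TGAATG at -133. An octamer was also present in the Spry2 window, and ETS letters were present in 1 Etv1 window and in that of Spred2. The octamers were found in 3.84% of all 32851 windows of 300 bases in the table, TGAATG, which lies within 2 of the octamers, in 12.7%, the ETS letters in 23.8%, the AP-1 letters in 7.81% and the CRE in 1.79%. Neither AP-1 letters nor a CRE occurred in the windows of these 7 genes. These matches are a description of letters, not of binding.

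The PEA3 genes gave the largest differences of the set. Etv4 (chromosome 11, 101769742 to 101785371, minus strand, GRCm38) was measured without drug at 53.2 and 61.0 CPM (Ctrl), 49.7 and 54.6 CPM (IFN200) and 62.6 and 55.7 CPM (IFN2000). With drug it was measured at 10.0 and 10.4 CPM (Oxali), 8.16 and 7.73 CPM (Combo200) and 7.30 and 8.02 CPM (Combo2000). Every library with Oxali thus lay far below every library without it, and the pairs within a group lay close together. How many of all genes tested separate in this way was not counted, so here and below the separation only describes levels. In Combo200 against IFN200, 33.5% of all genes tested were called lower and 36.5% higher. Etv4 means in Oxali, Combo200 and Combo2000 were 17.8%, 13.9% and 13.4% of the Ctrl mean of 57.1 ± 5.54 CPM (SD, n = 2).

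Etv5 (chromosome 16, 22381309 to 22439719, minus strand), also of the PEA3 subfamily, followed the same course. Ctrl libraries had 34.4 and 36.1 CPM, IFN200 libraries 35.9 and 34.5 CPM and IFN2000 libraries 39.8 and 43.4 CPM. Under drug, Oxali libraries had 5.25 and 5.87 CPM, Combo200 libraries 4.71 and 4.41 CPM and Combo2000 libraries 4.74 and 4.27 CPM. Those 6 values do not overlap the 6 without drug. Etv5 means were 15.8%, 12.9% and 12.8% of the Ctrl mean of 35.3 ± 1.20 CPM (SD, n = 2). Within a library, the log2 ratio of Etv4 to Etv5 CPM ran from 0.36 to 0.76 without drug and from 0.62 to 0.93 with it, so these ranges overlap. Etv1 (chromosome 12), the remaining PEA3 gene, had 0 counts in all 12 libraries, which allows up to 0.111 to 0.167 CPM depending on the library (3 counts, counting error only).

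Among the Sprouty genes, which restrain receptor signaling to RAS, Spry4 alone was measurable. Spry4 (chromosome 18, 38586247 to 38601415, minus strand) was the lowest of the 7 genes tested, at 15 to 77 counts per library. Without drug, Ctrl had 2.89 and 2.48 CPM, IFN200 had 2.86 and 3.40 CPM and IFN2000 had 3.00 and 3.26 CPM. With drug, Oxali had 1.06 and 1.10 CPM, Combo200 had 1.18 and 0.580 CPM and Combo2000 had 0.852 and 0.948 CPM. The libraries with drug did not overlap those without, and Combo200 had the widest gap between its libraries, at 27 and 15 counts. Spry2 had 0 counts in all 12 libraries. Spry1 had 7 counts in IFN2000 replicate 2, the library with T cell transcripts, and 0 in the other 11. It overlaps Gm42922 on the opposite strand over 710 exonic bases, and without a stated strand setting the reads cannot be assigned to either. No other gene of the set shares exonic bases with another annotated gene.

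The dual-specificity phosphatase genes were among the more stable transcripts of the set. Dusp6 (chromosome 10, 99263231 to 99267489, plus strand), which encodes a cytoplasmic phosphatase of ERK, had 63.4 and 67.9 CPM (Ctrl), 61.5 and 63.2 CPM (IFN200) and 72.8 and 69.9 CPM (IFN2000) without drug. With drug it had 56.5 and 51.7 CPM (Oxali), 51.1 and 51.4 CPM (Combo200) and 49.9 and 48.3 CPM (Combo2000). Combo200 and Combo2000 lay below Oxali, Combo200 only narrowly, and neither difference from Oxali passed (edgeR adjusted p 0.646 and 0.172). Dusp4 (chromosome 8, 34807297 to 34819894, plus strand), which encodes a nuclear phosphatase of MAP kinases, had 50.7 and 50.8 CPM (Ctrl), 44.97 and 50.3 CPM (IFN200) and 47.7 and 50.9 CPM (IFN2000) without drug. With drug it had 39.8 and 42.2 CPM (Oxali), 40.5 and 40.04 CPM (Combo200) and 36.7 and 36.3 CPM (Combo2000). For both genes the 6 libraries with drug lay below the 6 without, by a narrow margin compared with Etv4 and Etv5. In Oxali the means were 82.4% of Ctrl for Dusp6 and 80.8% for Dusp4.

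The Spred genes, whose products block the activation of RAF by RAS, lay between these extremes. Spred1 (chromosome 2, 117121374 to 117182279, plus strand) had 89.6 and 90 CPM (Ctrl), 89.8 and 88.4 CPM (IFN200) and 77.3 and 82.8 CPM (IFN2000) without drug, the IFN2000 pair being the lowest of these. With drug it had 55.0 and 58.7 CPM (Oxali), 59.2 and 55.0 CPM (Combo200) and 55.2 and 50.3 CPM (Combo2000). Spred2 (chromosome 11, 19924375 to 20024026, plus strand) had 108 CPM in both Ctrl libraries, 117 and 113 CPM (IFN200) and 99.8 and 109 CPM (IFN2000). With drug it had 65.1 and 69.0 CPM (Oxali), 65.4 and 61.6 CPM (Combo200) and 64.7 and 58.8 CPM (Combo2000). Neither gene overlapped between libraries with and without drug, and the share of all genes that separate in this way was not counted. In Oxali the means were 63.3% of Ctrl for Spred1 and 62.3% for Spred2.

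**Figure D1:**
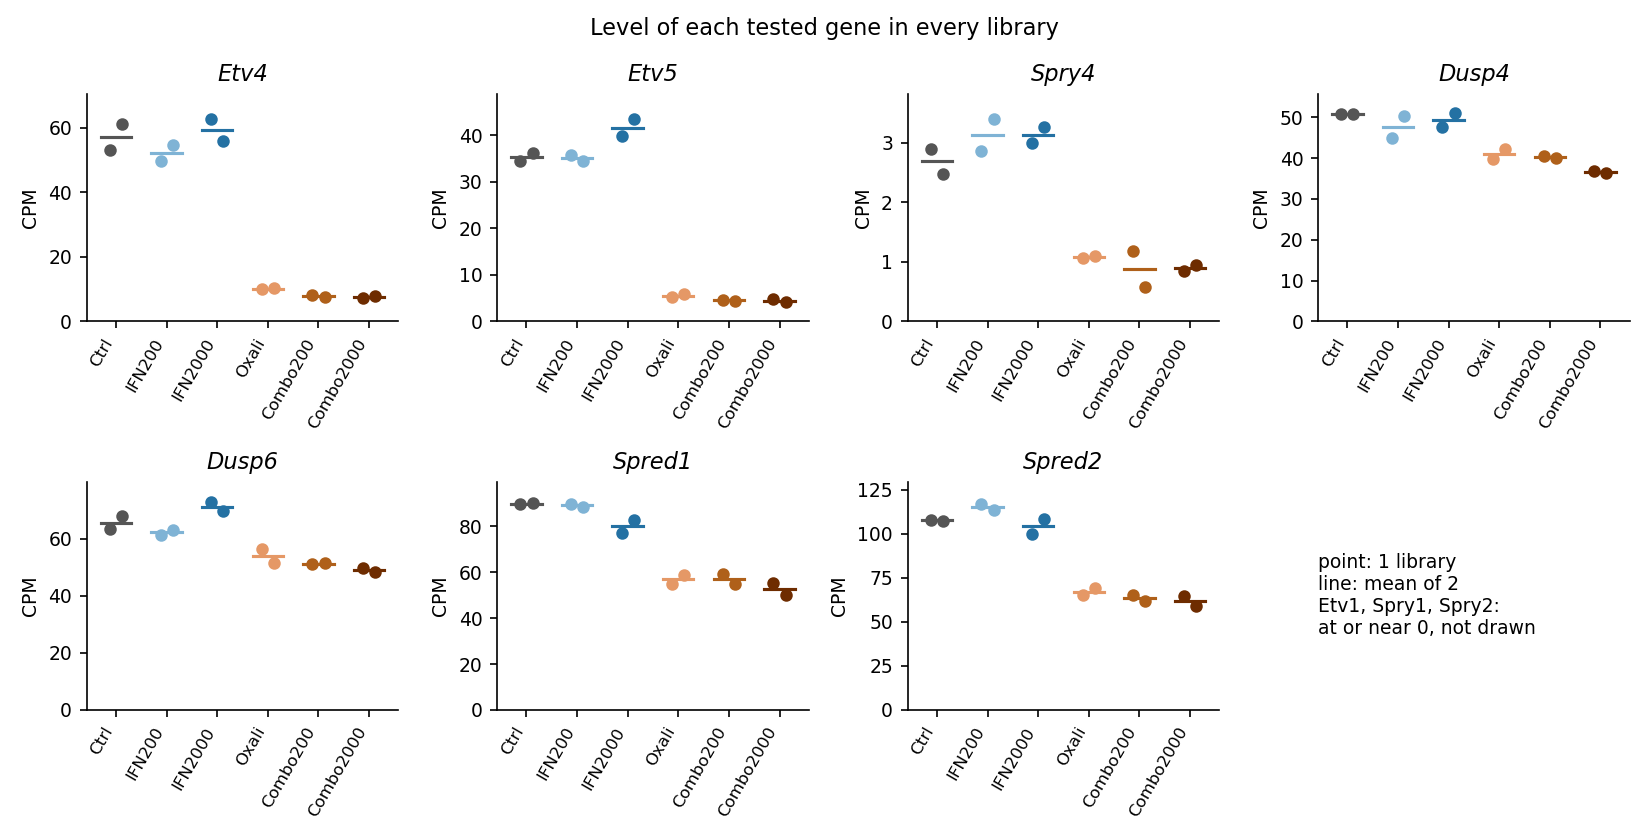
CPM (y axis, linear from 0) of the 7 tested genes in each of the 12 libraries (points) with the mean of each group of 2 (lines), by group on the x axis. Etv4 and Etv5 sit at 49.7 to 62.6 and 34.4 to 43.4 CPM without Oxali and at 7.30 to 10.4 and 4.27 to 5.87 CPM with it, while Dusp4 and Dusp6 stay above 36 CPM in every library.

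Levels were also compared between genes per kilobase of exon (CPM per kb). In Ctrl the order from the highest was Spred2 (23.3 ± 0.0180 CPM per kb), Dusp6 (21.0 ± 1.00), Dusp4 (18.5 ± 0.0101), Etv4 (18.4 ± 1.78), Spred1 (13.2 ± 0.0448), Etv5 (8.60 ± 0.292) and Spry4 (0.565 ± 0.0609; SD, n = 2 for each). Dusp4 and Etv4 overlapped in Ctrl, and no other neighbours in that order did. In Oxali the order was Dusp6 (17.3 ± 1.09 CPM per kb), Dusp4 (14.97 ± 0.627), Spred2 (14.5 ± 0.591), Spred1 (8.38 ± 0.380), Etv4 (3.28 ± 0.0816), Etv5 (1.36 ± 0.106) and Spry4 (0.227 ± 0.00565). Only Dusp4 and Spred2 overlapped there. Etv4, level with Dusp4 in Ctrl, was below Spred1 in Oxali.

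The effect of Oxali was then tested in libraries that had no part in the comparison of Oxali with Ctrl, at each IFNγ dose. The spread was estimated from all 12 libraries, with those of Oxali and Ctrl included. At 200 pg (Combo200 against IFN200) the 5 genes other than Etv4 and Etv5 all fell at an adjusted p under 0.05 (edgeR quasi-likelihood test, Benjamini-Hochberg over 13177 genes). Of all genes tested, 33.5% fell and 36.5% rose in that comparison. At 2000 pg (Combo2000 against IFN2000) the same 5 genes fell again, where 33.8% of all genes fell and 38.5% rose. The set was chosen with earlier results of these data known. They included large falls of Etv4 and Etv5 with drug and their Combo2000 levels relative to Ctrl. The falls of Etv4 and Etv5 at both doses are therefore a description, and the counts above leave them out. The other 5 genes are the ones tested, and that earlier knowledge limits what their p-values show. With a fall in about 1 gene of 3, the size of a change tells more than its call.

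Etv4 and Etv5 were chosen for a large fall with drug, so their changes and ranks are described, with no test at either dose. Etv5 changed the most with 200 pg of IFNγ, by a log2 fold change of -2.95 (SE 0.09), which is 7.72-fold lower. Etv4 changed by -2.72 (SE 0.09), 6.57-fold lower. Ranked from the largest fall among the 13177 genes, Etv5 stood at 16 and Etv4 at 23 at 200 pg. With 2000 pg, Etv5 was 9.19-fold and Etv4 7.75-fold lower (log2 fold changes of -3.20 and -2.95). Spry4 came next in the set with log2 fold changes of -1.85 (SE 0.25) and -1.80 (SE 0.25), at ranks 87 and 93. Its value at 200 pg was -2.42 without Combo200 replicate 2 and -1.42 without Combo200 replicate 3.

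The other 4 genes changed by less than 2-fold. Spred2 fell by 0.86 (SE 0.05) and 0.75 (SE 0.05) on the log2 scale at 200 and 2000 pg, and Spred1 fell by 0.64 (SE 0.05) and 0.60 (SE 0.05). Dusp6 fell by 0.28 (SE 0.05) and 0.54 (SE 0.05), and Dusp4 by 0.24 (SE 0.06) and 0.43 (SE 0.06). The largest adjusted p among these 4 was 0.000715, for Dusp4 at 200 pg (edgeR). Without IFNγ, where the genes were chosen and no test is given, the log2 fold changes of Oxali against Ctrl were -2.67 for Etv5, -2.49 for Etv4, -1.31 for Spry4, -0.68 for Spred2, -0.66 for Spred1, -0.31 for Dusp4 and -0.28 for Dusp6. In that comparison Etv5 and Etv4 stood at ranks 16 and 19 from the largest fall. In bulk RNA a lower share of cells that express a gene and less RNA of it per cell cannot be told apart. No label says that the libraries of a group came from separate cultures, so the p-values measure the spread between these libraries, which may be technical. The smallest two-sided p that an exact permutation of 2 against 2 libraries can give is 0.333.

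**Figure D2:**
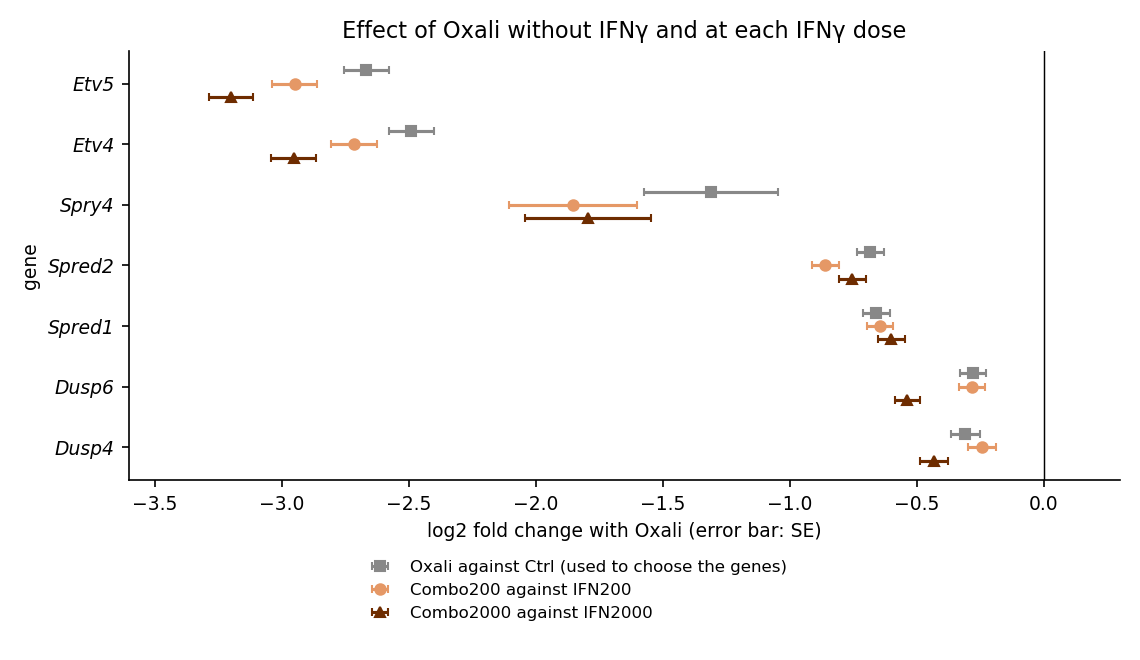
Log2 fold change with Oxali (x axis, error bars are SE) of each tested gene (y axis) without IFNγ, at 200 pg and at 2000 pg. Etv5 and Etv4 lie between -3.20 and -2.49, Spry4 between -1.85 and -1.31, and the other 4 genes between -0.86 and -0.24.

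To ask whether the drug effect differed between the IFNγ doses, the difference of these 2 log2 fold changes was tested. It passed for 1 of 7 genes, where 6.59% of all genes passed. For Dusp6 the value at 2000 pg minus that at 200 pg was -0.25 (SE 0.07, edgeR adjusted p 0.0374). The levels behind it are 62.3 ± 1.25 CPM in IFN200 and 51.2 ± 0.232 in Combo200, and 71.3 ± 2.05 in IFN2000 and 49.1 ± 1.17 in Combo2000 (SD, n = 2). The call was lost with DESeq2 (adjusted p 0.124), without IFN2000 replicate 2 (-0.22, edgeR adjusted p 0.125) and without either Ctrl, IFN200, Combo200 or Combo2000 library taken singly (edgeR adjusted p 0.0501 to 0.168; 0.162 without IFN200 replicate 1). For Etv5 the difference was -0.25 (95% interval -0.55 to 0.05, edgeR adjusted p 0.308) and for Etv4 -0.24 (95% interval -0.53 to 0.06, edgeR adjusted p 0.338). The Combo2000 levels of Etv4 and Etv5 were known when the set was chosen, which limits what these p-values show. Those of Dusp4, Spred1, Spred2 and Spry4 were -0.19, 0.04, 0.11 and 0.06 and did not pass either.

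IFNγ alone moved these genes little. These comparisons share the Ctrl libraries with each other and with the comparison that chose the genes. In IFN200 against Ctrl 0 of 7 genes passed with edgeR and 0 with DESeq2, where 0.114% of all genes did with edgeR. At an unadjusted p under 0.05 (edgeR) there were 0 of 7, and 801 of all 13177 genes. The log2 fold change of Etv5 was -0.01 (95% interval -0.14 to 0.13) and that of Etv4 -0.13 (95% interval -0.27 to 0.01). In IFN2000 against Ctrl 2 of 7 passed, where 16.9% of all genes did. Etv5 rose by 0.24 (SE 0.06, edgeR adjusted p 0.0129) and Spred1 fell by 0.17 (SE 0.05, edgeR adjusted p 0.0323) on the log2 scale. Neither passed with DESeq2 (adjusted p 0.0827 and 0.136). Etv5 was at 0.30 (edgeR adjusted p 0.0147) without IFN2000 replicate 2 but lost its call without IFN2000 replicate 3 (0.19, edgeR adjusted p 0.0737) or Ctrl replicate 1 (0.21, edgeR adjusted p 0.127). Spred1 lost its call without IFN2000 replicate 2 (-0.11, edgeR adjusted p 0.307), without either Ctrl or either IFN200 library (edgeR adjusted p 0.0627 to 0.19), and after a correction for transcript length and GC content (-0.09, edgeR adjusted p 0.166). Etv4 had a log2 fold change of 0.05 (95% interval -0.09 to 0.19).

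In the dose step without drug, IFN2000 against IFN200, 4 of 7 genes passed, where 22.3% of all genes did. Etv5 and Dusp6 were higher by 0.24 and 0.19 (edgeR adjusted p 0.00747 and 0.00767), on the log2 scale. Spred1 and Spred2 were at -0.15 and -0.14, just past the threshold (edgeR adjusted p 0.0334 and 0.0442), and kept their call under 11 and 5 of 20 alternatives. Without IFN2000 replicate 2 the values of Spred1 and Spred2 were -0.10 and -0.08 (edgeR adjusted p 0.317 and 0.428), and the length and GC correction moved Spred1 to -0.06. Etv4 was at 0.18 (edgeR adjusted p 0.0524), and passed under 7 of the 20 alternatives, among them without IFN2000 replicate 3 (0.28), IFN200 replicate 2 (0.26) or either Ctrl library (0.19). Without IFN2000 replicate 2, and also without IFN200 replicate 1, the count of set members that passed was 1. Without IFN200 replicate 2 it was 2.

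Adding IFNγ to Oxali gave no call by edgeR with the main settings. In Combo200 against Oxali 0 of 7 genes passed (0 with DESeq2), where 1.83% of all genes did. At an unadjusted p under 0.05 (edgeR) there were 2 of 7, and 1447 of all 13177 genes. In Combo2000 against Oxali 0 of 7 passed (1 with DESeq2), where 4.36% of all genes did. At an unadjusted p under 0.05 (edgeR) there were 5 of 7, and 1966 of all 13177 genes. All 7 log2 fold changes were below 0 in the second comparison, from -0.41 to -0.11, where the median of all genes was 0.003. Etv4 was at -0.36 (95% interval -0.62 to -0.10, edgeR adjusted p 0.221) with 200 pg and -0.41 (95% interval -0.67 to -0.16, edgeR adjusted p 0.0656) with 2000 pg. It passed at 2000 pg with DESeq2 (adjusted p 0.0488) and without IFN2000 replicate 2 or replicate 3, which are not in the comparison but enter the estimate of the spread (edgeR adjusted p 0.0305 and 0.0298). Etv5 was at -0.29 and -0.30 (95% intervals -0.55 to -0.02 and -0.56 to -0.03). These comparisons share the Oxali libraries with the comparison that chose the genes. The Combo2000 levels of Etv4 and Etv5 relative to Ctrl were also known when the set was chosen. Combo2000 against Combo200 does not share them, but its Combo2000 levels of Etv4 and Etv5 were among the values known at the choice. There 0 of 7 passed (0 with DESeq2), where 1.37% of all genes did. At an unadjusted p under 0.05 (edgeR) there was 1 of 7, and 1221 of all 13177 genes. Between those combinations Etv4 differed by -0.06 (95% interval -0.32 to 0.21) and Etv5 by -0.01 (95% interval -0.28 to 0.26).

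**Figure D3:**
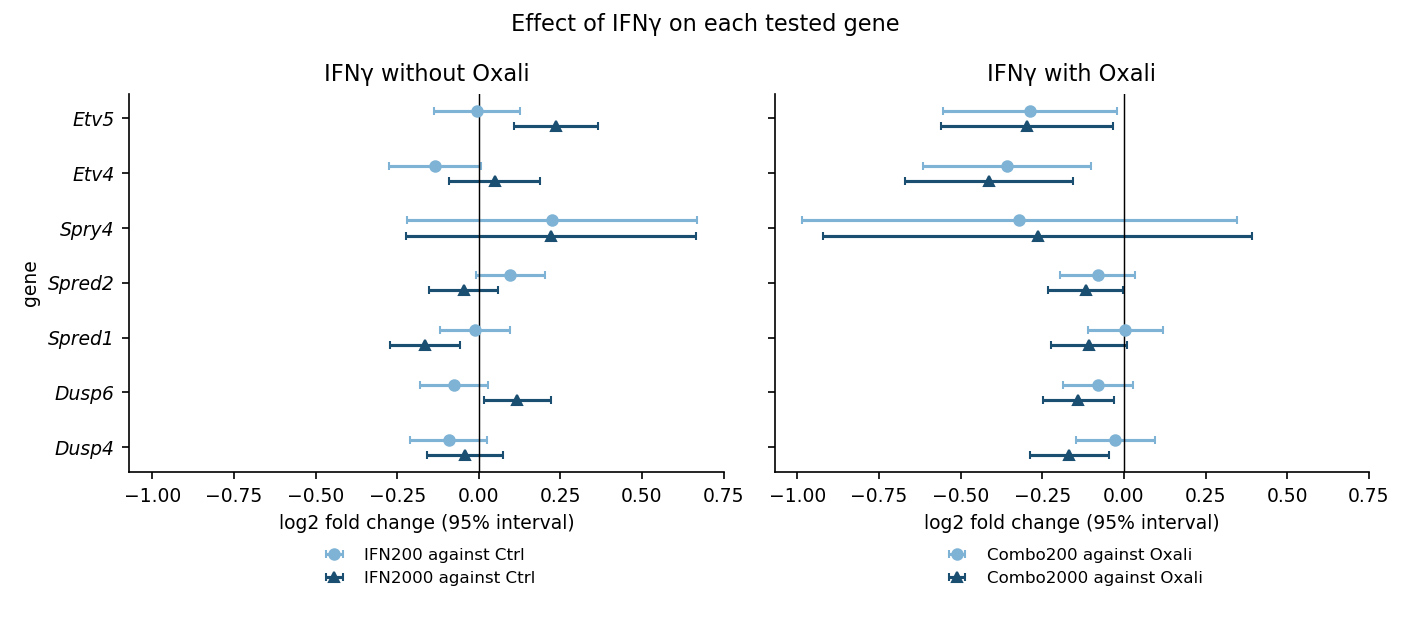
Log2 fold change (x axis, bars are 95% intervals) of each tested gene (y axis) with IFNγ at 200 or 2000 pg, without Oxali (left) and with Oxali (right). Without Oxali, Etv5 lies at -0.01 and 0.24; with Oxali, Etv4 lies at -0.36 and -0.41, and intervals of Spry4 are the widest.

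Other genes of the pathway were read in lists, in the same comparisons of Combo with IFNγ alone, and are described by counts and medians. The median log2 fold change of all genes tested was 0.02 at 200 pg and 0.03 at 2000 pg. Of all genes tested, 36.5% rose and 33.5% fell at 200 pg, and 38.5% rose and 33.8% fell at 2000 pg. The counts of every list below stand beside these shares. The other dual-specificity phosphatases went the other way from Dusp4 and Dusp6: 8 of 8 tested rose at 200 pg (median 0.70) and 7 of 8 at 2000 pg (median 0.58), against 36.5% and 38.5% of all genes. Dusp10, a phosphatase of the kinases p38 and JNK, rose from 8.06 to 36.4 CPM at 200 pg and from 7.997 to 37.0 CPM at 2000 pg, log2 fold changes of 2.18 and 2.21. Dusp8 rose by 1.26 and 1.09, and Dusp1, an immediate-early phosphatase gene, by 0.95 and 1.28. Dusp2 was the exception at 2000 pg, with a log2 fold change of -0.17 (edgeR adjusted p 0.332) against 0.58 at 200 pg. Of the 9 listed, Dusp9 had too few counts to be tested.

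Genes known as further transcriptional output of ERK did not follow Etv4 and Etv5 as a list. Of 10 tested, 3 rose, 1 fell and 6 did not pass at 200 pg (median 0.16), and 5 rose, 2 fell and 3 did not pass at 2000 pg (median 0.15). Among all genes 36.5% rose and 33.5% fell at 200 pg, and 38.5% and 33.8% at 2000 pg. Epha2, a receptor tyrosine kinase gene, rose by 0.71 and 0.58, Phlda1 by 0.68 and 0.75, and Ccnd1, which encodes cyclin D1, by 0.44 and 0.18. Plaur, the urokinase receptor gene, fell by 0.22 and 0.41. Fos was at 0.06 and 0.35 and Egr1 at 0.57 and -0.34, of which only Fos at 2000 pg passed (edgeR adjusted p 0.0236). Fos and Egr1 are immediate-early genes whose transcripts are short-lived.

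Upstream of ERK the lists were mixed. Among 11 receptors and ligands tested, 4 rose and 4 fell at 200 pg (median 0.07), and 9 rose and 2 fell at 2000 pg (median 0.48). Fgfr3 rose by 1.76 and 1.82, Egfr by 1.26 and 1.51 and Hbegf, a ligand of the EGF receptor, by 1.06 and 1.07. Tgfa, another such ligand, fell by 0.70 and 0.43 and Erbb2 fell by 0.40 and 0.19. The comparison at 2000 pg rests on the IFN2000 libraries with the length trend, in which many of these genes were low. In IFN2000 against Ctrl, 7 of the 11 were lower and 1 was higher (median -0.23). There 16.9% of all genes were called in either direction, and 49.8% of those called were higher. Erbb3 and Fgfr2 fell by 0.14 each at 200 pg and rose by 0.26 and 0.22 at 2000 pg, while their Combo2000 means, 48.3 and 135 CPM, lay above the IFN2000 means of 40.6 and 116 CPM and below the Ctrl means of 54.7 and 151 CPM. Among 18 genes from adaptors to ERK, 5 rose and 9 fell at 200 pg (median -0.12), and 6 rose and 9 fell at 2000 pg (median -0.10). Gab1, an adaptor, rose by 1.18 and 1.57, the scaffold Ksr1 by 0.68 and 0.71 and Araf by 0.32 and 0.41, while Nras fell by 0.43 and 0.33 and Map2k1, the MEK1 gene, by 0.24 and 0.43. Of 5 genes for proteins that switch RAS off, 2 rose and 3 fell at 200 pg and 2 rose and 2 fell at 2000 pg. Rasal2 rose by 0.53 and 0.68, Dab2ip rose by 0.31 and 0.46, Rasa2 fell by 0.39 and 0.31 and Rasa1 fell by 0.25 and 0.19.

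The genes that act on PEA3 genes and proteins moved in small steps. Of 5 tested, 4 rose and 1 fell at either dose, with medians of 0.19 and 0.30. Cic was at 0.14 and 0.32 and its partner Atxn1l at 0.19 and 0.37, both higher. Cop1, the ubiquitin ligase that marks PEA3 proteins for degradation, fell by 0.47 and 0.48, and its adaptor genes Det1 and Trib1 rose by 0.71 and 0.30 and by 0.47 and 0.30. Of 10 ETS factors outside the PEA3 subfamily, 5 rose and 2 fell at 200 pg (median 0.23), and 7 rose and 1 fell at 2000 pg (median 0.30). Elf3 rose by 1.06 and 1.16, Elk3 by 1.01 and 1.05 and Ets2 by 0.57 and 0.51, and Gabpa fell by 0.68 and 0.71. No gene on this list changed as far as Etv4 or Etv5, which were chosen for a large fall with drug.

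**Figure D4:**
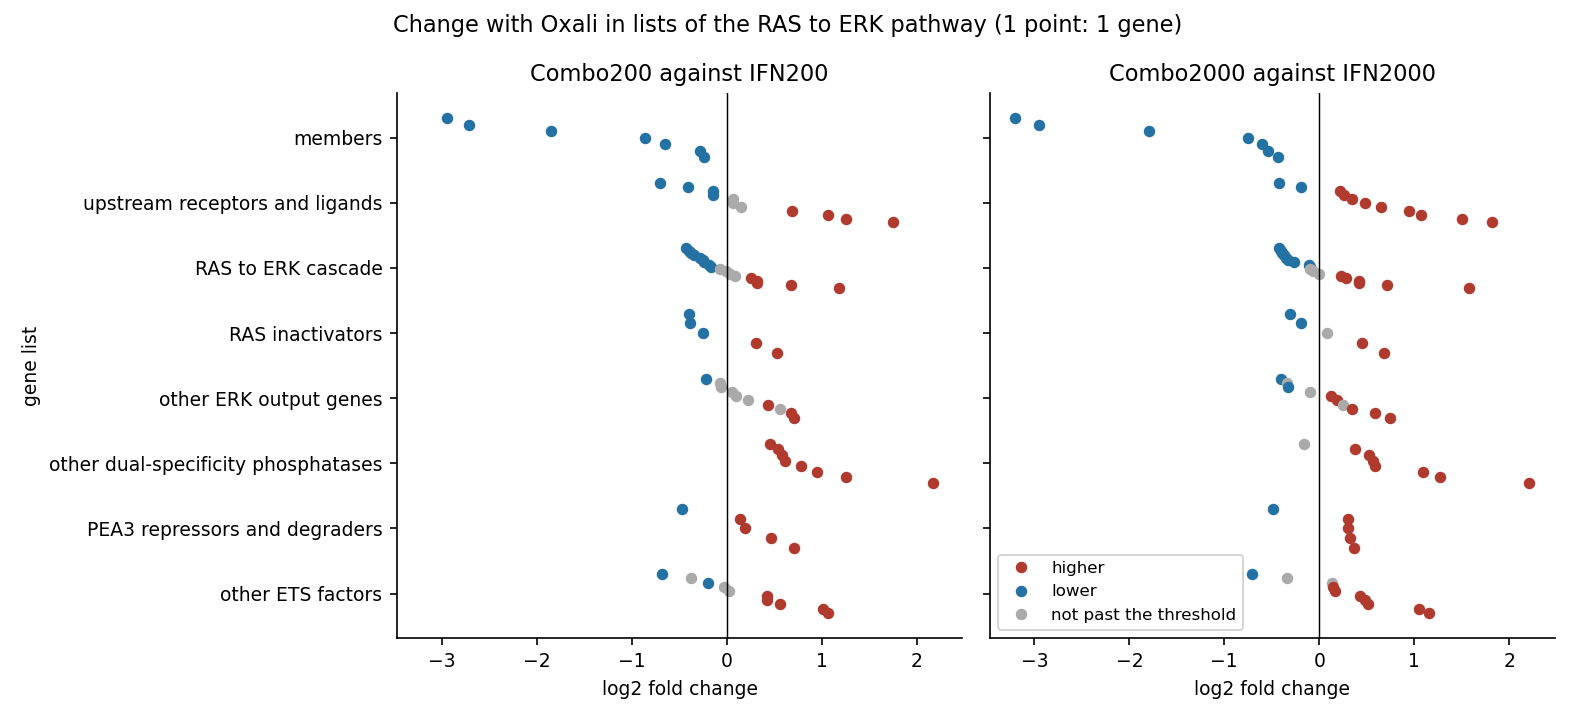
Log2 fold change with Oxali (x axis) at 200 pg (left) and 2000 pg (right) of every tested gene of the set (top row, members) and of 7 lists of the pathway (y axis), 1 point per gene, colored by direction where the adjusted p was under 0.05. The 7 genes of the set all lie below 0, down to -3.20, and the other dual-specificity phosphatases lie above 0, up to 2.21, with Dusp2 at 2000 pg (-0.17) as the exception.

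The patterns of Etv4 and Etv5 across treatments were compared with those of all 13177 genes, as the root mean square difference of the log2 fold changes against Ctrl over the 5 treated groups. Each was the gene nearest to the other, at 0.139 on the log2 scale. Next to Etv5 were Il20rb (0.395), Gm26813 (0.403), Bhlha15 (0.407) and Rpl22l1 (0.409), and next to Etv4 were Gm26813 (0.312), Il20rb (0.324), Rpl22l1 (0.332) and Gm15694 (0.397). Of these, Rpl22l1, a paralog of a ribosomal protein gene, had a level like that of Etv4 (59.9 CPM in Ctrl and 10.99 in Oxali), whereas Il20rb, Gm26813 and Gm15694 were below 1 CPM in Ctrl and Bhlha15 was at 3.999 CPM. All 5 fold changes share the Ctrl libraries, and those of the groups with Oxali hold the fall for which Etv4 and Etv5 were chosen. The likeness is a description.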

How the data were processed

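RNA of 12 Myc-CaP libraries (poly(A), stranded kit) was measured as reads per gene. The authors deposited raw counts, 1 row per gene symbol. The study's methods describe alignment with STAR to GRCm38, GENCODE gene models and counting with featureCounts. The submitters' processing notes name STAR 2.7.3a and RSEM 1.3.0, and the deposited counts are whole numbers. Whether counting used the strand was not stated. All columns were used.

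Counts were filtered with filterByExpr (minimum count 10, minimum total 15), scaled by TMM and tested with edgeR 4.0.16 (R 4.3.3, quasi-likelihood, 1 mean per group, all 12 libraries, 9 contrasts). A gene was called at an adjusted p under 0.05. SE was taken from the fold change and its F statistic. Limits for counts of 0 cover counting error only. Partner libraries of a group differed by more than sampling noise (chi-square per degree of freedom 1.65 to 8.39). Alternatives were DESeq2 1.42.0, other scalings and filters, the replicate number as a block, only the groups compared, offsets for transcript length and GC content (values for 99% of tested genes) and leaving out each library. The code was tested on simulated data. Coordinates and exon lengths come from a later GENCODE release on GRCm38. Spry3 is not analysed here.

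The set and all lists were chosen with earlier results of these data known. From each list, up to 3 rises and 3 falls with the largest mean log2 fold change, called in the same direction at both doses, were named, except for a few genes that are not reported here; Erbb3, Fgfr2, Dusp2, Fos, Egr1, Cic, Cdkn1a and Irf1 were named outside this rule, after their values had been seen.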

Additional observations from a re-analysis of the deposited data

Results flagged for a closer look

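For Dusp6, the ERK phosphatase gene, the log2 fold change with Oxali at 2000 pg of IFNγ minus that at 200 pg was -0.25 and passed the test of that difference (edgeR adjusted p 0.0374), in 1 of the 7 genes, where 6.59% of all genes passed. It stayed past the threshold under 9 of 20 alternatives, and fell short with DESeq2 and with the replicate number as a block, among others. Across the alternatives its adjusted p ran from 0.0109 to 0.168 and its value from -0.29 to -0.22.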

How the results depend on the processing

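In both comparisons of Combo with IFNγ alone, every tested member of the set was called lower under each of 20 alternatives, where Etv4 and Etv5 are a description only. With only genes of a mean of at least 50 counts, 6 were tested, as Spry4 dropped out. The counts in IFN200 against Ctrl, Combo200 against Oxali and Combo2000 against Combo200 stayed at 0. For IFN2000 against Ctrl the members called went from 2 to 0 with DESeq2, 1 with upper-quartile scaling, 1 with the length and GC correction, and 0 to 2 when single libraries were left out. For IFN2000 against IFN200 they went from 4 to 1 with DESeq2, 2 with only the groups compared, 2 with the length and GC correction, 5 with no filter, and 1 to 4 without single libraries. There the members called were not the same ones throughout: Spred2 kept its side of the threshold under 5 of 20 alternatives, Spred1 under 11 and Etv4, not called otherwise, under 13. For Combo2000 against Oxali they went from 0 to 1 with DESeq2, 1 with no filter, 1 with only the groups compared, 2 with the length and GC correction, and 0 to 1 without single libraries. For the difference of the drug effect they went from 1 to 0 with DESeq2 and 0 to 1 without single libraries. With the replicate number as a block, members called were 0 in IFN2000 against Ctrl, 1 in IFN2000 against IFN200, 1 in Combo2000 against Oxali and 0 in the difference. Replicate numbers did not pair the libraries (correlation of the within-group differences -0.56 to 0.17, over 6 pairs of groups), and the labels tie them to no shared culture or day. Without Combo200 replicate 2, 3 of the 5 genes acting on PEA3 were called at 200 pg. Of all member values under alternatives, 1181 kept their side of the threshold, 16 gained a call, 54 lost one and 0 called values changed sign. The share of called genes that rose went from 49.8% to 62.4% in IFN2000 against Ctrl and from 50.7% to 61.0% in IFN2000 against IFN200 with the length and GC correction. The causes were not tested.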
